A study of Mus musculus with 21 samples.

Results

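Tumors of wild-type hosts given a STING agonist were compared with sham-treated tumors of hosts that lack working STING. The comparison used the 12 libraries that the sample labels put in these groups, 8 agonist and 4 STING-deficient, of 21 libraries in the series. The agonist libraries came from Lewis lung carcinoma (LLC) tumors, made from a mouse lung cancer cell line, in male C57BL/6 mice with a wild-type genotype, injected into the tumor with STING agonist. The STING-deficient libraries came from LLC tumors in male C57BL/6 mice of the genotype TMEM173(gt/gt), the goldenticket allele of the gene for STING, injected with PBS. In both groups the LLC cells had gone into the right flank, the injections began once tumors had grown to a set diameter, and RNA was taken from the whole tumor with TRIzol. The labels give no age and no dose. Lung is given as the tissue in the labels, whereas tumor cells had been placed in the flank. The goldenticket allele affects the host alone, so implanted LLC cells kept their own copy of the gene. Genotype and treatment changed together here, and deficient hosts with agonist were not analysed, so the effect of either one cannot be told apart from that of the other within these 12 libraries. The remaining 9 libraries, wild-type tumors injected with PBS (wild-type sham), are used below to place levels between the 2 groups, to fit the steps between them, and in an alternative fit on all 21 libraries.

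STING is an adaptor on the endoplasmic reticulum that binds cyclic dinucleotides, made by the enzyme cGAS when DNA appears in the cytosol. Activated STING leads to phosphorylation of the transcription factor IRF3 and to production of type I interferon, which acts through its receptor and a complex of STAT proteins and IRF9 on genes that carry an interferon-stimulated response element. In tumors the pathway is known for its activity in host myeloid and endothelial cells, and interferon made there is known to favor T cell priming and recruitment.

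Expression was read on a NanoString panel of 750 mouse immune and tumor genes, in which barcoded probes are counted without amplification. The values are the authors' normalized signal on a linear scale. The median probe stood at 133 ± 52.7 (SD, n = 8) in agonist libraries and at 47.2 ± 10.5 (n = 4) in deficient libraries, and the lowest agonist median, 61.5, lay above the highest deficient median, 60.8 (exact two-sided permutation p = 0.00404, the smallest that 8 against 4 allows; adjusted p = 0.00707 over 7 library measures). The factor by which a count had been scaled, as estimated from the spacing of the values, was also higher, 1.12 ± 0.144 signal per count in agonist and 0.788 ± 0.0793 in deficient libraries (exact permutation p = 0.00404, adjusted p = 0.00707), while the totals of the counts recovered with it, 418457 ± 163570 in agonist and 323770 ± 23429 in deficient libraries, were not told apart by the same test (exact permutation p = 0.234, adjusted p = 0.273). Both rest on a recovery whose low-value check failed in 6 of the 8 agonist libraries and in 0 of the 4 deficient libraries. By its rule the check also fails where a library holds few low values, so a failure does not show a wrong recovery. Both measures thus remain unchecked and uncertain in the agonist group. The 10th percentile of the values, which reflects the dimmest probes, was above 30 in agonist replicates 1, 2 and 6, between 6.78 and 21.3 in the other agonist libraries and between 4.06 and 6.00 in deficient libraries. How far this lift of the whole panel is scaling or background was not tested, so each result is given both as deposited and relative to the panel, that is, after each library's own median was subtracted on the log2 scale.

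**Figure D1:**
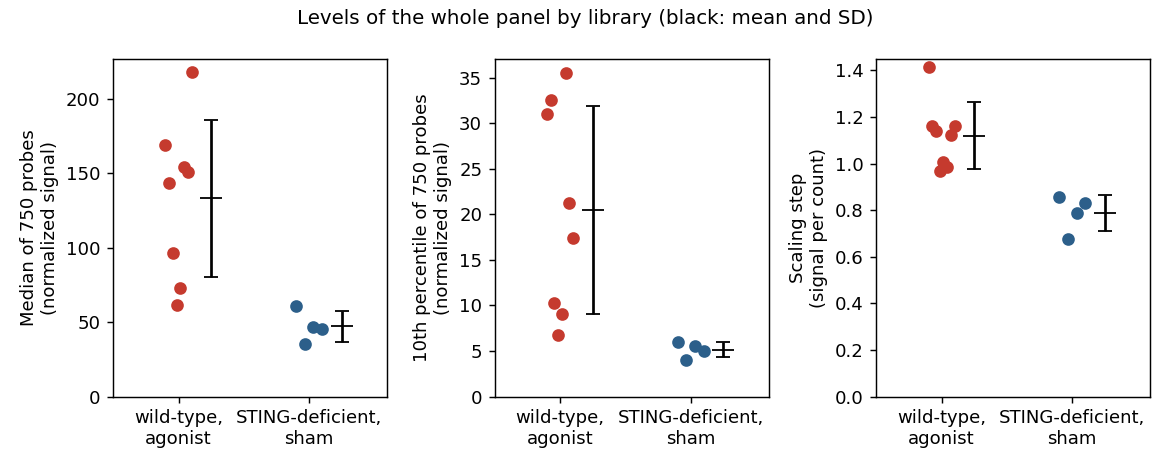
Median value, 10th percentile of values and scaling step (y axes, normalized signal, and signal per count for the step) of each library over 750 probes, agonist on the left and STING-deficient on the right, with black bars for mean and SD. All 8 agonist points lie above all 4 deficient points in each panel, and the agonist medians spread from 61.5 to 218.

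As deposited, 700 of 750 probes had a higher mean log2 level in agonist than in deficient libraries, and the median difference was 1.33 on the log2 scale. The limma fit called 379 probes higher (50.5%) and 0 lower at an adjusted p of 0.05, with 480 at an unadjusted p under 0.05, of which 1, Sigirr, was lower. The number called higher was 90 without deficient replicate 2, 163 without deficient replicate 4, 205 without deficient replicate 3, between 239 and 244 without agonist replicate 1, 6 or 7, and 34 without agonist replicates 6, 7 and 8 together. These 3 libraries were left out together because their values carry 2 decimals, whereas values of every other library in the series carry up to 16. Whether they were processed differently was not tested. Against the panel median, 46 probes rose (6.13%) and 137 fell (18.3%), so calls of higher made up 25.1% of the calls instead of 100%. With TMM scaling of the same values 74 rose (9.87%) and 63 fell (8.4%), 54.0% higher, and the 46 genes that rose relative to the panel were all among the 74. Without any model, all 8 agonist values lay above all 4 deficient values for 117 probes (15.6%) and below them for 1 (0.133%), Birc5; after centring on the library median these were 18 (2.4%) and 73 (9.73%). Agonist libraries varied more among themselves, with a larger SD of log2 values than deficient libraries at 673 of 750 probes (median SD 0.916 in agonist and 0.387 in deficient libraries).

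**Figure D2:**
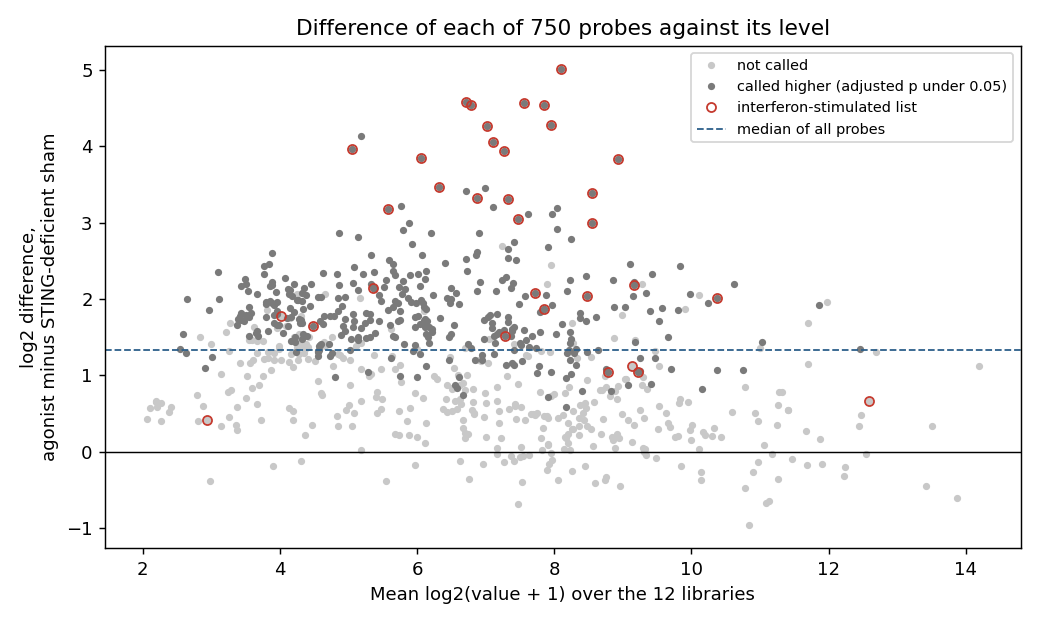
Difference in log2(value + 1), agonist minus STING-deficient sham (y axis), of each of 750 probes against its mean level over the 12 libraries (x axis, log2). Dark points are called higher by limma, red rings mark 33 interferon-stimulated genes, and the dashed line is the median difference of 1.33; 29 of the rings are called and the largest differences, up to 5.01, belong to this list.

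Tmem173, the gene of STING, was read in every library. It ranged from 40.6 through a median of 80.1 to 249.97 in agonist libraries, and measured 69.4, 42.6, 46.6 and 43.1 in deficient libraries. The groups overlapped, and the difference of 0.95 ± 0.46 (SE, log2) was not called (limma adjusted p = 0.0897), turning to -0.16 with TMM scaling. Since the goldenticket change is a single base that need not alter how much transcript is made, the genotype labels cannot be checked from Tmem173.

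The interferon-stimulated genes had the highest median difference of the lists on the panel. Of 36 genes listed as such, 33 were on the panel, 29 of them rose as deposited and 0 fell, against 50.5% of all probes, and their median difference was 3.18, against 1.33 for the panel. Relative to the panel 20 of the 33 rose and 0 fell, against 6.13% and 18.3% of all probes, with a median of 1.78 against -0.07. The 46 probes that rose relative to the panel thus comprise these 20 and 26 genes from outside the list. With TMM scaling 21 rose. All 8 agonist values exceeded all 4 deficient values for 24 of the 33, against 15.6% of the panel, and for 16 after centring, against 2.4%. Unlike the count over the whole panel, the count for this list as deposited moved little when libraries were left out: 26 were called without deficient replicate 2, 22 without agonist replicates 6, 7 and 8, where 34 probes were called in all, and 26 without agonist replicates 1, 2 and 6, the libraries with the highest 10th percentiles. Relative to the panel the list was not counted with libraries left out. In that frame the 46 of the whole panel became 15 without deficient replicate 2 and 16 without agonist replicates 6, 7 and 8. Fewer than 20 of the list thus rose there.

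Isg15, a ubiquitin-like protein that is both attached to other proteins and secreted, ranged from 204 through 644 to 1945 in agonist libraries (lowest, median and highest) and measured 68.5, 16.9, 28.4 and 36.5 in deficient libraries. Ifit1, whose protein binds RNA that lacks the host cap methylation, ranged from 176 through 366 to 563 in agonist tumors, against 28.3, 5.41, 22.1 and 24.1 in deficient tumors. Ifit3, a partner of Ifit1 in humans, ranged from 196 through 1069.5 to 6102 in agonist tumors, against 42.8, 16.9, 26.1 and 24.1 in deficient tumors. In all of these the lowest agonist tumor exceeded the highest deficient tumor, and deficient replicate 2 was the lowest of all 12. The differences were 4.28 ± 0.56, 4.26 ± 0.46 and 5.01 ± 0.80 (SE, log2; limma adjusted p = 0.000545, 9.51e-05 and 0.00174 for Isg15, Ifit1 and Ifit3), or 19.4-fold, 19.2-fold and 32.3-fold on the log2(value + 1) scale. Set against the panel they were 2.88, 2.87 and 3.62 (adjusted p = 3.15e-05, 2.75e-05 and 0.000534). Rsad2, which encodes the antiviral enzyme viperin, ranged from 81.3 through 331 to 1042 in agonist libraries, against 14.6, 5.41, 8.68 and 25.7 in deficient libraries, a difference of 4.58 ± 0.65 (adjusted p = 0.000892).

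The promoters of these genes and of Cxcl10 are shown because they hold matches to the core of the element through which type I interferon acts. Each line gives 230 bases just before the annotated start, read on the gene's own strand from RefSeq on GRCm38.p6, and capitals mark matches to GAAANNGAAA or its reverse complement.
Isg15: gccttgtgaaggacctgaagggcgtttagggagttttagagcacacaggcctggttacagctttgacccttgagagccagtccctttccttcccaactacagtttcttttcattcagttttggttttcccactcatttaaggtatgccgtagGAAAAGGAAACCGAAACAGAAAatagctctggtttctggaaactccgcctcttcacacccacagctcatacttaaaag
Ifit1: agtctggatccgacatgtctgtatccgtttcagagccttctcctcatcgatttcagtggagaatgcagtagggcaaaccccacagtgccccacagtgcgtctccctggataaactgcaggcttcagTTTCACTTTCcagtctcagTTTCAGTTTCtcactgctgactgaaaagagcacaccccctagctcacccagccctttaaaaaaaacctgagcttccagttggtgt
Ifit3: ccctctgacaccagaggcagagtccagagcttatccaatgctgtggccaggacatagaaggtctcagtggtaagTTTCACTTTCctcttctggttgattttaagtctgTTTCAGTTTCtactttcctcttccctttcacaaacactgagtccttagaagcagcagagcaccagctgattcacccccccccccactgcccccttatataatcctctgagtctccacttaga
Rsad2: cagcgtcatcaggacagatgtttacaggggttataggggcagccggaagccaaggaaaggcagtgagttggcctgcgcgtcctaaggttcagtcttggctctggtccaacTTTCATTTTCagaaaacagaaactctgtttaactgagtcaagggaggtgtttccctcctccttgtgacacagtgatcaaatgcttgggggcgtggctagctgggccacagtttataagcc
Cxcl10: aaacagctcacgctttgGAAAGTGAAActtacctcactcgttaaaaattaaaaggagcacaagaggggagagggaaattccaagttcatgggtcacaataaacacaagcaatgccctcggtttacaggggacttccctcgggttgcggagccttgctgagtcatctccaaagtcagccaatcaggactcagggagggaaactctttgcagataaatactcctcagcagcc
They lie at chr4:156200819-156201048 (minus strand), chr19:34640659-34640888 (plus), chr19:34583299-34583528 (plus), chr12:26456453-26456682 (minus) and chr5:92348890-92349119 (minus). Isg15 had 3 matches that overlap by their shared GAAA, Ifit1 and Ifit3 had 2 each, and Rsad2 and Cxcl10 had 1. Over windows from 250 bases before to 50 after the start, on both strands, the motif was found for 3.99% of 27025 genes with a window. It was found for 14 of 26 interferon-stimulated genes with a window (53.8%) and for 37 of 528 other panel genes (7.01%). Among genes that rose relative to the panel it was found for 13 of 35 (37.1%), and among those that fell for 4 of 101 (3.96%). Of these 13, 10 belong to the interferon-stimulated list, and among the risen genes outside that list it was found for 3 of 19 (15.8%). A match describes the letters of a window and is not evidence of binding.

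Among the transcription factors and enzymes of the list, Irf7, the interferon regulatory factor that amplifies type I interferon production, ranged from 195 through 638 to 2204 in agonist libraries, against 48.8, 12.2, 26.8 and 34.0 in deficient libraries. Oas2, an enzyme that makes the activator of RNase L, ranged from 98.7 through 368 to 1212 in agonist tumors, against 32.6, 9.47, 18.2 and 29.0 in deficient tumors. The groups did not overlap for either, and differed by 4.54 ± 0.64 and 4.05 ± 0.60 (log2; limma adjusted p = 0.000853 and 0.00103 for Irf7 and Oas2). Cmpk2, a mitochondrial nucleotide kinase that lies beside Rsad2, ranged from 188 through 409 to 878 in agonist tumors, against 32.6, 18.3, 23.7 and 23.2 in deficient tumors, which left a wide gap between the groups and a difference of 3.94 ± 0.40 (adjusted p = 9.51e-05). Oasl1, Ifi44, Mx2 and Usp18 rose by 4.55, 4.57, 3.97 and 3.84 in the same fit. Usp18, which removes Isg15 from proteins and damps interferon signaling, ranged from 54.4 through 192 to 560.4 in agonist tumors, against 11.1, 8.80, 7.11 and 15.8 in deficient tumors. Mx2 stood at 14.5 or more in agonist libraries, and near the lower end of the scale in deficient libraries, at 5.14, 3.38, 4.74 and 4.15.

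In this list 4 of 33 genes were not called; like other genes named below only as members of a small count, they were picked after their values were seen. Ifitm1 and Ifitm2, membrane proteins that block virus entry, were abundant in both groups: Ifitm2 ranged from 4806 through 6970.5 to 14715 in agonist libraries, against 4987, 4184, 4042 and 5123 in deficient libraries. Their differences were 1.12 ± 0.48 and 0.66 ± 0.29 (limma adjusted p = 0.061 and 0.068 for Ifitm1 and Ifitm2). Mx1, which carries a deletion in C57BL/6 mice, stayed between 4.64 and 11.2 in agonist and between 2.57 and 8.12 in deficient libraries. Gbp2b, a guanylate-binding protein, differed by 1.78 ± 0.72 (adjusted p = 0.0529).

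**Figure D3:**
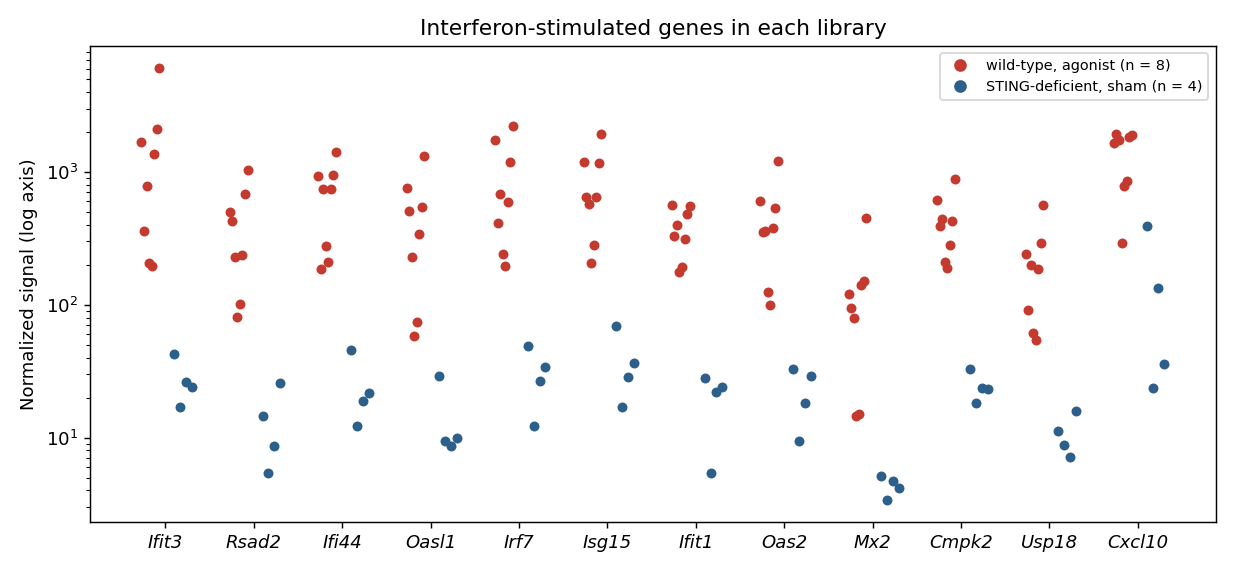
Normalized signal (y axis, log) of the 12 interferon-stimulated genes with the largest differences, each point a library, agonist in red left of STING-deficient in blue. The groups are apart for 11 genes and overlap at Cxcl10, where the lowest agonist library (293) stands below deficient replicate 1 (392).

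The agonist tumors were not alike in these genes. The mean log2 level of the 33 genes, set to 0 at the deficient mean, was 3.56, 2.72, 2.82, 1.58, 1.90, 3.01, 3.51 and 4.09 in agonist replicates 1 to 8, and 0.60, -0.62, -0.03 and 0.05 in deficient replicates 1 to 4. Over all 750 probes the same measure was 1.77, 1.73, 0.83, 0.28, 0.58, 1.66, 1.59 and 1.93 in the agonist libraries. Replicates 4 and 5 thus had the lowest levels of both, yet their interferon-stimulated genes stood above every deficient tumor. Deficient replicate 1 had the highest level of the list and of the panel among deficient tumors, and replicate 2 the lowest of both.

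The wild-type sham tumors split the difference into a step of treatment in wild-type hosts and a step of genotype under sham. Isg15 averaged 275 ± 102 (SD, n = 9) in wild-type sham tumors, which put it 1.35 ± 0.38 (SE, log2) below agonist tumors and 2.93 ± 0.47 above deficient tumors (limma on 21 libraries, adjusted p = 0.00608 and 0.000488 for the treatment and the genotype step). For Ifit1 the treatment step was 0.97 ± 0.31 and the genotype step 3.29 ± 0.38 (adjusted p = 0.0105 and 1.15e-05), and for Rsad2 they were 1.33 ± 0.41 and 3.24 ± 0.51 (adjusted p = 0.00957 and 0.000429). Both steps share the wild-type sham libraries and are set side by side here. Over the list the median treatment step was 1.33, beside 0.96 over the panel, and the median genotype step 1.59, beside 0.29. The genotype step was called for 15 of 750 probes (2%), all 15 in this list, and the treatment step for 519 above 0 (69.2%) and 5 below 0 (0.667%), among them 30 of the 33 above 0.

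The genotype step was the larger for 24 of the 33 genes, against 17.1% of all probes. The difference of the 2 steps was tested as a contrast of the same fit, added after the values were seen. As deposited it was called for 0 of 750 probes by limma, with 59 at an unadjusted p under 0.05, and for Isg15 and Ifit1 it was -1.57 and -2.32 (adjusted p = 0.521 and 0.382). In the frame of the panel it was called for 5 (0.667%), Cmpk2, Ifi44, Ifit1, Isg15 and Rsad2, each with the larger genotype step. Over all probes in that frame the treatment step was called above 0 for 54 (7.2%) and below 0 for 137 (18.3%), and the genotype step for 17 (2.27%) and 4 (0.533%). Ifit1 had a treatment step of 0.03 (adjusted p = 0.935) and a genotype step of 2.83 (adjusted p = 2.77e-07) in it. No other tool was run on this contrast.

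**Figure D4:**
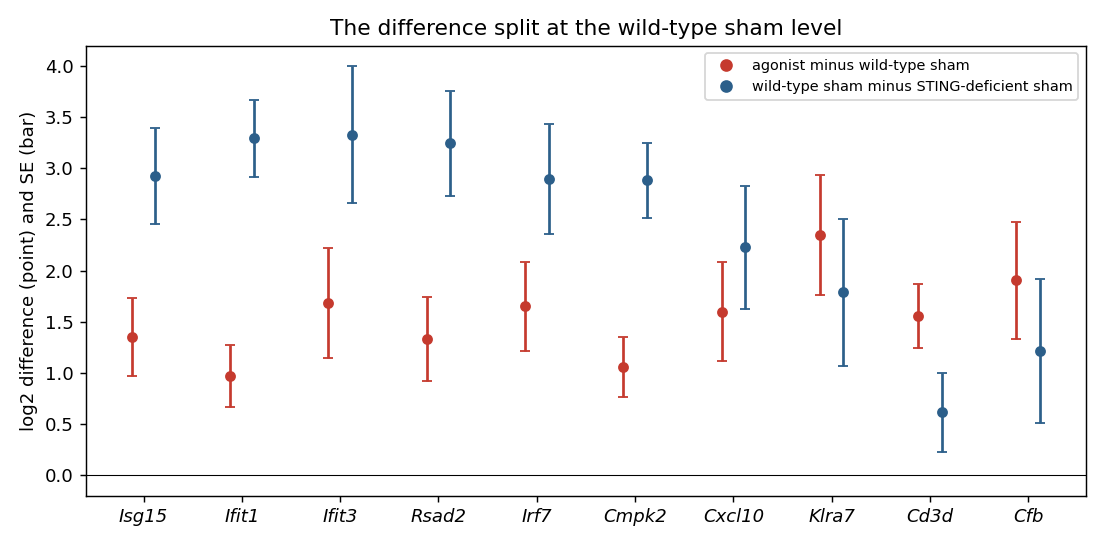
Treatment step (red, agonist minus wild-type sham) and genotype step (blue, wild-type sham minus STING-deficient sham) in log2 units as deposited (y axis), points with bars of 1 SE from the fit on 21 libraries, for 10 named genes. Blue stands above red for the interferon-stimulated genes, as for Ifit1 at 3.29 and 0.97, and below it for Cd3d at 0.62 and 1.56.

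The counts of the other lists are to be read against all probes, of which 50.5% rose as deposited and 6.13% rose and 18.3% fell relative to the panel. When a single library was left out, the lowest count as deposited, or a tie for it, came without deficient replicate 2 in every list. Among nucleic acid sensors and their adaptors, 15 of 22 rose as deposited (median 1.46), beside 50.5% of all probes, and relative to the panel 5 rose and 4 fell. The 5 stand beside 6.13% of all probes, and the 4 are near the 18.3% of all probes. The count of 15 was 6 without deficient replicate 2, 8 without deficient replicate 4 and 9 without deficient replicate 3 or agonist replicate 1 or 7. Those that rose relative to the panel were Irf7, Zbp1, Nlrc5, Ifih1 and Tlr9, most of them known as interferon-induced. Zbp1, a sensor of left-handed nucleic acid, ranged from 269 through 859 to 2648 in agonist libraries, against 166, 33.2, 68.7 and 96.2 in deficient libraries, and Ifih1, which encodes the RNA sensor MDA5, from 159.7 through 338 to 923 in agonist tumors, against 78.0, 23, 48.2 and 38.2 in deficient tumors. All agonist values exceeded all deficient ones for both, and the differences were 3.38 ± 0.61 and 3.04 ± 0.48 (limma adjusted p = 0.00336 and 0.00162 for Zbp1 and Ifih1), 1.99 and 1.65 relative to the panel (adjusted p = 0.00778 and 0.000879). Ddx58, the gene of the RNA sensor RIG-I, rose by 2.04 ± 0.40 (adjusted p = 0.00548), and stood at 0.64 relative to the panel (adjusted p = 0.118). The 4 that fell relative to the panel were Tbk1, the kinase that STING engages, Irf3, the factor Tbk1 phosphorylates, and the adaptors Mavs and Ticam1. As their share is near that of all probes, no pattern is read from them. Irf3 ranged from 154 through 240.0 to 305 in agonist libraries, against 208, 196, 193 and 228 in deficient libraries, and Tbk1 from 89.6 through 141 to 219.7 in agonist tumors, against 85.7, 101, 118 and 102 in deficient tumors. As deposited they overlapped and differed by 0.18 ± 0.25 and 0.45 ± 0.31 (adjusted p = 0.525 and 0.206 for Irf3 and Tbk1), and relative to the panel by -1.22 and -0.94 (adjusted p = 0.0247 and 0.0181). Myd88, an adaptor of Toll-like receptors, was among the smallest calls: it ranged from 196 through 283 to 417 in agonist tumors, against 188, 165, 150.0 and 189.9 in deficient tumors. Its difference was 0.71 ± 0.26 (adjusted p = 0.0406) as deposited, -0.68 relative to the panel (adjusted p = 0.0574) and -0.41 with TMM scaling.

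Interferons, their receptors and JAK-STAT genes held 22 probes. Of these 15 rose as deposited, beside 50.5% of all probes, but the median, 1.18, was under that of the panel. Relative to the panel 1 rose and 2, Jak1 and Stat6, fell, beside 6.13% and 18.3% of all probes. The 15 became 2 without deficient replicate 2, 6 without deficient replicate 3 or 4, and 9 without deficient replicate 1 or agonist replicate 6 or 7. Ifnb1, the gene of interferon beta, ranged from 4.56 through 25.6 to 239 in agonist libraries, against 5.14, 4.06, 3.95 and 4.15 in deficient libraries, so that 7 of 8 agonist tumors lay above all deficient tumors. It differed by 2.22 ± 0.83 (limma adjusted p = 0.0418) as deposited, by 0.83 relative to the panel (adjusted p = 0.399) and by 1.69 (adjusted p = 0.29) after the 10th percentile of each library was subtracted. Ifna1 and Ifnl2, an interferon alpha and an interferon lambda, rose by 2.26 ± 0.80 and 2.20 ± 0.68 as deposited (adjusted p = 0.0362 and 0.0226); the interferon alpha genes are near copies, and which of them the probe reads is uncertain. The 1 that rose relative to the panel was Stat2, the subunit particular to type I and type III interferon signaling, which ranged from 204 through 327 to 641 in agonist libraries, against 105, 51.4, 82.9 and 87.9 in deficient libraries, without overlap. It differed by 2.08 ± 0.34 (limma adjusted p = 0.00174) as deposited and by 0.69 ± 0.24 relative to the panel (adjusted p = 0.0487). Irf1 rose by 1.44 ± 0.37 and Irf2, which opposes Irf1, by 1.01 ± 0.27 (adjusted p = 0.0135 and 0.0141), and relative to the panel they stood at 0.05 and -0.38. Ifnar1, a chain of the type I interferon receptor, differed by 0.88 ± 0.35 (adjusted p = 0.049), and Stat3 by 0.89 ± 0.30 (adjusted p = 0.0303); relative to the panel these were -0.52 and -0.51 (adjusted p = 0.103 and 0.18), and with TMM scaling -0.25 and -0.24.

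Chemokines that draw T cells rose in 12 of 17 cases as deposited (median 1.81), beside 50.5% of all probes. Relative to the panel Cxcl10, Ccl4 and Cxcl13 rose and Ccl5 fell (3 and 1, beside 6.13% and 18.3% of all probes). The 12 became 6 without deficient replicate 2 or 4, and 3 when either agonist replicates 6, 7 and 8 or agonist replicates 1, 2 and 6 were left out. Cxcl10, an interferon-induced ligand of the receptor Cxcr3, ranged from 293 through 1686 to 1941 in agonist libraries, against 392, 23.7, 133 and 35.7 in deficient libraries. Deficient replicate 1 lay inside the agonist range, and 7 of 8 agonist tumors exceeded all deficient tumors. The difference was 3.83 ± 0.70 (limma adjusted p = 0.00342), and 2.43 relative to the panel (adjusted p = 0.00985). Cxcl11, another ligand of the receptor, ranged from 15.5 through 84.3 to 133 in agonist tumors, against 24.0, 10.1, 12.6 and 9.12 in deficient tumors, and rose by 2.35 ± 0.52 (adjusted p = 0.00873). Cxcr3 itself ranged from 26.1 through 49.3 to 102 in agonist tumors, against 18.8, 11.5, 14.2 and 10.8 in deficient tumors, without overlap, and rose by 1.80 ± 0.41 (adjusted p = 0.00884); relative to the panel Cxcl11 stood at 0.96 and Cxcr3 at 0.41 (adjusted p = 0.0507 and 0.268). Ccl17, a ligand of the chemokine receptor Ccr4, rose by 2.14 ± 0.47 (adjusted p = 0.00873), also without overlap. Ccl4, made by activated macrophages and lymphocytes, ranged from 37.8 through 264 to 925 in agonist tumors, against 78.8, 8.12, 21.3 and 12.4 in deficient tumors, and Ccl5, made by T cells among others, from 188 through 552 to 1485 in agonist tumors, against 402, 441, 302 and 785 in deficient tumors. They differed by 3.42 ± 0.79 and 0.18 ± 0.50 as deposited (adjusted p = 0.00884 and 0.751 for Ccl4 and Ccl5), and by 2.03 and -1.21 relative to the panel (adjusted p = 0.0158 and 0.0247).

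Chemokines that draw monocytes and neutrophils, with their receptors, rose in 7 of 19 cases as deposited (median 1.35, beside 1.33 for the panel), a smaller share than the 50.5% of all probes. The 7 became 1 without deficient replicate 2 and 3 without deficient replicate 1, 3 or 4 or agonist replicate 1 or 7, while agonist replicate 6 left out gave 4. Relative to the panel 1 rose and 3, Cx3cl1, Ccl9 and Cx3cr1, fell, beside 6.13% and 18.3% of all probes. The difference between the chemokine lists was not tested. Cxcl5, a neutrophil attractant, was the 1 that rose in both frames: it ranged from 214 through 422 to 977 in agonist libraries, against 129, 48.7, 69.5 and 51.4 in deficient libraries, with no overlap. It differed by 2.68 ± 0.46 (limma adjusted p = 0.00266), and by 1.28 relative to the panel (adjusted p = 0.0156). Cxcr2, a receptor for it, rose by 2.0 ± 0.52 (adjusted p = 0.0138), with agonist replicate 2 at 686 and the median at 123. Ccl2, the main monocyte attractant, was dim on this panel, from 11.1 to 50.9 in agonist and 2.57 to 11.1 in deficient libraries, and its difference of 1.80 ± 0.52 (adjusted p = 0.0186) was 0.90 (adjusted p = 0.35) after each library's 10th percentile was subtracted.

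In whole tumors more cells of a type and more RNA per cell cannot be told apart. Of 17 T cell markers 14 rose as deposited (median 2.05), beside 50.5% of all probes, and 0 relative to the panel (median 0.66). The T cell count was 3 without deficient replicate 2 and 8 without deficient replicate 4. It was 1 with the replicate number as a block, where the difference rests on replicates 1 to 4 of each group. It was 1 without agonist replicates 6, 7 and 8, 3 without agonist replicates 1, 2 and 6, and 7 after subtraction of the 10th percentile. Of the 17, 14 averaged under 20 in deficient libraries. The summed level of the 17 ranged from 314 to 1898 in agonist and from 190 to 401 in deficient libraries. Cd3d, a chain of the T cell receptor complex, ranged from 39.7 through 124 to 180.2 in agonist tumors, against 52.3, 13.5, 25.3 and 15.8 in deficient tumors, and differed by 2.17 ± 0.46 (limma adjusted p = 0.00846). After centring on the panel the difference was 0.78 (adjusted p = 0.0533), and with TMM scaling 1.08 (adjusted p = 0.0317). Cd8b1, a chain of the CD8 co-receptor, ranged from 13.6 through 46.7 to 103 in agonist tumors, against 10.3, 8.12, 7.11 and 4.98 in deficient tumors, without overlap, and differed by 2.34 ± 0.55 (adjusted p = 0.00916), or 0.95 relative to the panel (adjusted p = 0.0663).

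Markers of regulatory T cells rose in 6 of 7 cases as deposited (median 1.88), beside 50.5% of all probes. Relative to the panel 0 rose and 1, Foxp3, fell, beside 6.13% and 18.3% of all probes. The 6 became 1 without deficient replicate 2, 2 without deficient replicate 4, and 0 with the replicate number as a block or without agonist replicates 6, 7 and 8 or 1, 2 and 6. Foxp3, their defining transcription factor, was dim, from 4.84 through 10.6 to 19.8 in agonist libraries, against 10.3, 6.77, 10.3 and 5.81 in deficient libraries, a difference of 0.29 ± 0.42 (adjusted p = 0.545). Ctla4, an inhibitory receptor abundant on these cells, ranged from 38.7 through 73.2 to 135 in agonist libraries, against 40.3, 12.9, 18.9 and 15.8 in deficient libraries, and rose by 1.89 ± 0.44 (limma adjusted p = 0.00916). Ccr8, a chemokine receptor of tumor regulatory T cells, rose by 2.03 ± 0.55 (adjusted p = 0.0148). Relative to the panel these stood at 0.50 and 0.63 (adjusted p = 0.24 and 0.172 for Ctla4 and Ccr8).

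NK cell markers rose in 14 of 21 cases as deposited (median 1.71), beside 50.5% of all probes, with Klra7, Klrk1, Klrc1 and Il2rb higher and Itga2 lower relative to the panel (4 and 1, beside 6.13% and 18.3% of all probes). The 14 became 7 without deficient replicate 2, 4 without agonist replicates 1, 2 and 6, and 0 without agonist replicates 6, 7 and 8. Klra7, an inhibitory receptor of the Ly49 family, had the largest difference of any gene outside the interferon-stimulated list, 4.13 ± 0.91 (limma adjusted p = 0.00873) and 2.74 relative to the panel (adjusted p = 0.0127). It ranged from 11.6 through 129 to 285 in agonist libraries, against 26.6, 0.677, 0.790 and 9.12 in deficient libraries, so the groups overlapped and deficient replicates 2 and 3 were at about 1 count. Ly49 genes are near copies of each other, and which of them this probe reads is uncertain. Its treatment step was 2.35 ± 0.58 (adjusted p = 0.00362) and its genotype step 1.79 ± 0.72 (adjusted p = 0.383). Klrk1, the activating receptor NKG2D, ranged from 49.9 through 173 to 360.4 in agonist tumors, against 78.0, 8.80, 18.2 and 9.12 in deficient tumors, and rose by 2.87 ± 0.65 (adjusted p = 0.00884), or 1.47 relative to the panel (adjusted p = 0.0327). Klrc1, which encodes the inhibitory receptor NKG2A, rose by 2.47 ± 0.55 and by 1.07 relative to the panel (adjusted p = 0.00873 and 0.0282). For these receptors deficient replicate 1 stood well above the other deficient tumors. Xcl1, a chemokine made by NK and CD8 T cells that draws dendritic cells, showed the same: it ranged from 46.5 through 103 to 201 in agonist libraries, against 74.5, 18.3, 16.6 and 18.2 in deficient libraries.

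Cytotoxic effector genes rose in 13 of 14 cases as deposited (median 2.14), beside 50.5% of all probes, with Gzma, Gzmb and Klrk1 higher and Lamp1 lower relative to the panel (3 and 1, beside 6.13% and 18.3%). The 13 became 7 without deficient replicate 2, 4 without agonist replicates 1, 2 and 6, and 0 without agonist replicates 6, 7 and 8. Gzma and Gzmb are granule proteases of cytotoxic lymphocytes. Gzma ranged from 67.8 through 348 to 1238 in agonist libraries, against 87.4, 11.5, 11.8 and 29.9 in deficient libraries. Gzmb ranged from 23.2 through 145 to 298 in agonist libraries, against 45.4, 8.12, 14.2 and 13.3 in deficient libraries. Deficient replicate 1 overlapped the agonist range in both, and the differences were 3.45 ± 0.82 and 2.72 ± 0.64 (limma adjusted p = 0.00925 for each), or 2.06 and 1.32 relative to the panel (adjusted p = 0.0208 and 0.0198). Fasl, the death ligand of cytotoxic lymphocytes, ranged from 4.84 through 22.6 to 31.4 in agonist libraries, against 0.857, 2.03, 5.53 and 5.81 in deficient libraries, and rose by 2.26 ± 0.50 (adjusted p = 0.00873). At such low levels it depended on the dim end of the scale, with 0.79 (adjusted p = 0.35) after the 10th percentile was subtracted. Tnfsf10, the interferon-induced death ligand TRAIL, ranged from 18.4 through 76.0 to 139.5 in agonist tumors, against 16.3, 14.9, 15.8 and 10.8 in deficient tumors, without overlap. It rose by 2.14 ± 0.51 (adjusted p = 0.00925), stood at 0.74 relative to the panel (adjusted p = 0.0691) and rose by 1.05 with TMM scaling (adjusted p = 0.0308). Klrd1, the partner chain of NKG2A, rose by 2.05 ± 0.48 (adjusted p = 0.00884).

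All 15 genes of MHC class I and peptide loading rose as deposited (median 1.91), beside 50.5% of all probes. Relative to the panel 2, Nlrc5 and Tap1, rose and 0 fell, beside 6.13% and 18.3% of all probes. The 15 became 5 without deficient replicate 2, 7 without deficient replicate 4, 5 without agonist replicates 1, 2 and 6, and 1 without agonist replicates 6, 7 and 8. Nlrc5, the transcription co-activator of class I genes, ranged from 85.2 through 257 to 843 in agonist libraries, against 123, 8.80, 60.8 and 11.6 in deficient libraries, and differed by 3.21 ± 0.72 (limma adjusted p = 0.00873), or 1.81 relative to the panel (adjusted p = 0.023). Tap1, a subunit of the peptide transporter, ranged from 272 through 604 to 1235 in agonist tumors, against 305, 60.9, 139 and 83.8 in deficient tumors, and differed by 2.30 ± 0.45 (adjusted p = 0.00548), or 0.90 relative to the panel (adjusted p = 0.0346). In both genes deficient replicate 1 reached into the agonist range. H2-T23, a nonclassical class I molecule, rose by 2.19 ± 0.48 (adjusted p = 0.00873); class I genes are alike in sequence, and cross-reading among them was not tested. Of 9 MHC class II genes 0 rose, with a median of 1.14 as deposited and -0.25 relative to the panel. The 0 depended on single libraries: 7 of the 9 were called higher without deficient replicate 1, and 8 in the fit on all 21 libraries. Leaving out agonist replicate 4, 5 or 2 gave 6, 3 or 1 called. H2-Aa ranged from 1865 through 5179.9 to 18927 in agonist libraries, against 7033, 552, 1966 and 708 in deficient libraries, and Cd74, the chain that escorts class II molecules, from 2312 through 3918 to 11495 in agonist tumors, against 6701, 826, 2748 and 974 in deficient tumors. Deficient replicate 1 was above most agonist tumors for both. Whether the response of class I and class II genes differs was not tested.

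Inhibitory checkpoint genes rose in 8 of 15 cases and co-stimulatory genes in 8 of 14 as deposited (medians 1.5 and 1.45), shares close to the 50.5% of all probes. Set against the panel 0 rose in either list. The 8 checkpoint genes became 4 without deficient replicate 2 or 4 and 5 without deficient replicate 3 or agonist replicate 1, 6 or 7. The 8 co-stimulatory genes became 1 without deficient replicate 2 or 4 and 5 without deficient replicate 3. Cd274, which encodes PD-L1, ranged from 129 through 571 to 3233 in agonist libraries, against 128, 44.7, 114 and 70.5 in deficient libraries, so that the lowest agonist tumor was level with the highest deficient tumor. It rose by 2.78 ± 0.67 (limma adjusted p = 0.01), stood at 1.39 ± 0.50 relative to the panel (adjusted p = 0.0533) and rose by 1.66 with TMM scaling (adjusted p = 0.0373). Lag3, an inhibitory receptor of activated T cells, ranged from 16.3 through 25.2 to 72.1 in agonist tumors, against 12.8, 4.74, 5.53 and 6.63 in deficient tumors, without overlap, and rose by 1.83 ± 0.42 (adjusted p = 0.00884), and stood at 0.43 relative to the panel (adjusted p = 0.379). Among co-stimulatory genes Cd40 rose by 1.95 ± 0.47, Icos by 1.94 ± 0.55 and Cd86 by 1.51 ± 0.43 (adjusted p = 0.00967, 0.0176 and 0.0186), with 0.55, 0.55 and 0.12 relative to the panel.

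Of 11 neutrophil markers 10 rose as deposited (median 2.08), beside 50.5% of all probes. Relative to the panel Lcn2, Fpr2 and Camp were higher (3) and 0 lower, beside 6.13% and 18.3% of all probes. Lcn2, the iron-sequestering lipocalin of neutrophil granules, which other cells also make, ranged from 104 through 515 to 1729 in agonist libraries, against 38.6, 54.1, 79.7 and 68.8 in deficient libraries, without overlap. It differed by 3.11 ± 0.69 (limma adjusted p = 0.00873), or 1.72 relative to the panel (adjusted p = 0.0276). Fpr2, a receptor for formylated peptides, ranged from 82.3 through 335 to 1025 in agonist tumors, against 66.0, 36.5, 58.4 and 39.8 in deficient tumors, and rose by 2.54 ± 0.58 and by 1.14 relative to the panel (adjusted p = 0.00884 and 0.047). Camp, the antimicrobial cathelicidin, rose by 2.86 ± 0.66 and by 1.47 relative to the panel (adjusted p = 0.00884 and 0.0159). The neutrophil count was 4 without deficient replicate 2, 0 without agonist replicates 6, 7 and 8 and 6 without replicates 1, 2 and 6.

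Of 19 macrophage and monocyte markers 6 rose as deposited (median 1.06, under that of the panel), beside 50.5% of all probes. Set against the panel 0 rose and 3, Cd163, Mrc1 and Msr1, fell, beside 6.13% and 18.3% of all probes, so the 3 are no more than the share of the panel. The 6 became 1 without deficient replicate 2 or 4 and 2 without deficient replicate 3, and it was 10 or 11 when agonist replicate 5 or 4 was left out. Cd163, Mrc1 and Msr1 are scavenger and mannose receptors of tissue macrophages. Cd163 ranged from 1698 through 2151 to 3182 in agonist libraries, against 2537, 2026, 2334 and 2499 in deficient libraries, and Mrc1 from 158 through 207 to 222 in agonist tumors, against 175, 201, 186 and 249 in deficient tumors. Their levels overlapped as deposited, with differences of -0.03 ± 0.25 and -0.04 ± 0.23 (limma adjusted p = 0.906 and 0.866 for Cd163 and Mrc1), and were -1.43 and -1.44 relative to the panel (adjusted p = 0.00985 and 0.0156). Fcgr1, the high-affinity IgG receptor and an interferon-responsive gene, ranged from 479 through 843 to 2456 in agonist tumors, against 335, 160.3, 277 and 255 in deficient tumors, without overlap, and rose by 2.07 ± 0.45 (adjusted p = 0.00873), and stood at 0.68 relative to the panel (adjusted p = 0.113). Cybb, the oxidase subunit of phagocytes, rose by 1.56 ± 0.49 (adjusted p = 0.0236) and stood at 0.17 relative to the panel. Cd14, a co-receptor for lipopolysaccharide, rose by 1.98 ± 0.55 (adjusted p = 0.0172) from dim levels, 4.06 to 14.6 in deficient libraries. The summed level of the 19 markers ranged from 11935 to 87519 in agonist and from 15221 to 23436 in deficient libraries. The difference between the neutrophil and macrophage lists was not tested.

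Of 16 markers of B and plasma cells 9 rose (median 1.39), and of 12 dendritic cell markers 8 rose (median 1.43), beside 50.5% of all probes. In neither list did a gene rise or fall relative to the panel (0 and 0). The 9 became 1 without deficient replicate 2 or 4, 3 without deficient replicate 3 and 4 without deficient replicate 1. Of agonist libraries, leaving out replicate 1 or 6 gave 4, replicate 7 gave 5 and replicate 4 gave 14. The 8 became 1 without deficient replicate 2 or 4 and 5 without deficient replicate 3. Cd79b, a chain of the B cell receptor, ranged from 8.05 through 24.4 to 61.2 in agonist libraries, against 0.857, 5.41, 6.32 and 3.32 in deficient libraries, and rose by 2.43 ± 0.62 (limma adjusted p = 0.0135), with 1.74 (adjusted p = 0.15) after the 10th percentile was subtracted. Irf8, a transcription factor needed for cross-presenting dendritic cells, ranged from 91.0 through 213 to 572 in agonist tumors, against 139, 50.1, 59.2 and 67.2 in deficient tumors, and rose by 1.59 ± 0.46 (adjusted p = 0.0186), and stood at 0.20 relative to the panel. Of 5 mast cell markers 1 rose, and 0 without agonist replicate 6 or deficient replicate 1, 2 or 3; the abundant Cma1, a mast cell chymase, and Fcer1a, a chain of the IgE receptor, differed by 0.80 ± 0.51 and 0.77 ± 0.36 (adjusted p = 0.176 and 0.0764) as deposited and by -0.32 and -0.34 with TMM scaling.

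**Figure D5:**
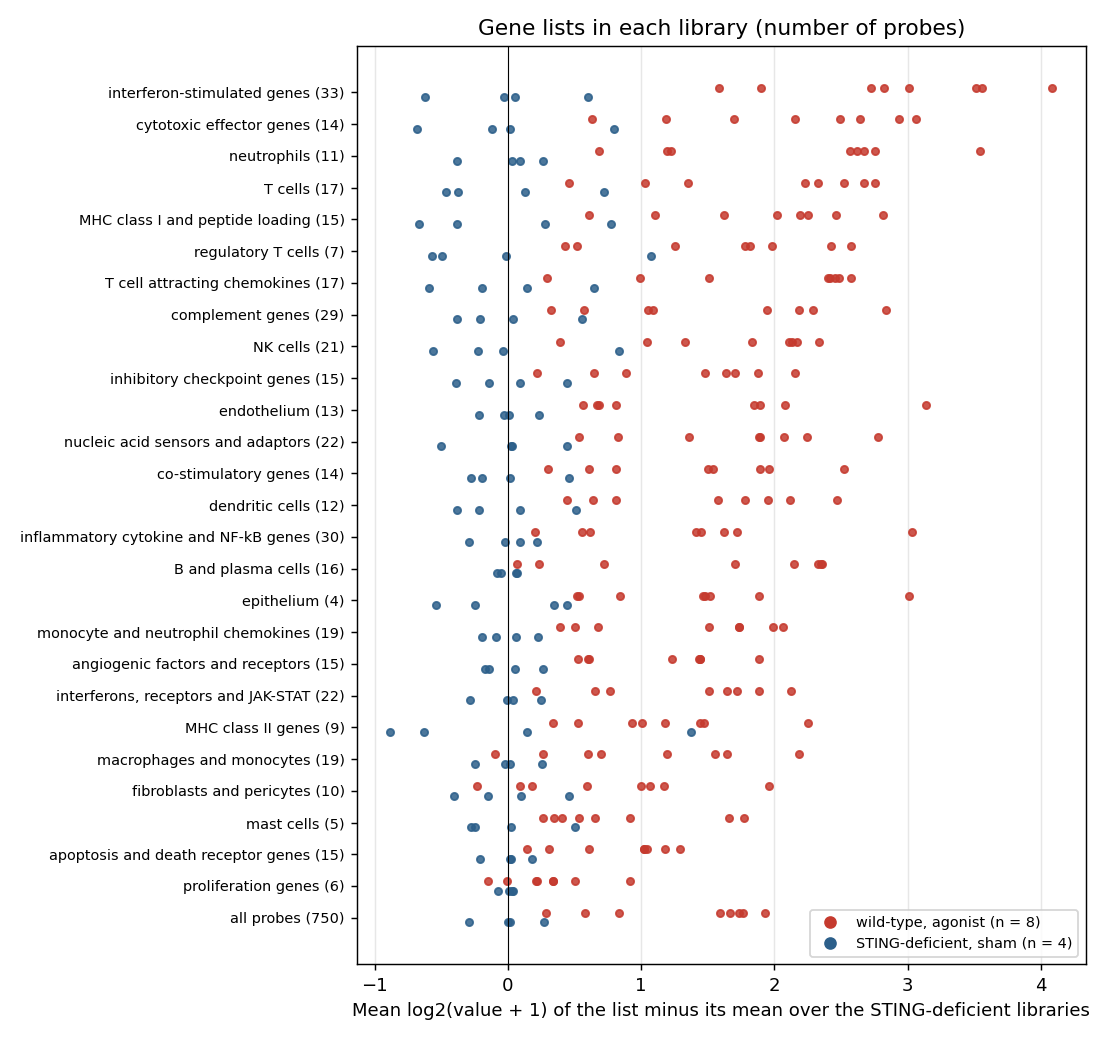
Mean log2(value + 1) of each gene list in each library, minus the mean of the 4 STING-deficient libraries (x axis, log2 units), with lists ordered by group difference down the page and the number of probes in brackets, agonist red and drawn above deficient blue. The interferon-stimulated genes reach furthest right, from 1.58 to 4.09, and the row for all 750 probes runs from 0.28 to 1.93 in agonist libraries.

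Complement genes rose in 16 of 29 cases as deposited (median 1.76), close to the 50.5% of all probes. Relative to the panel 0 were higher and 3 lower, among them C1qbp and Masp1, beside 6.13% and 18.3% of all probes. The 16 became 0 without deficient replicate 2 and with the replicate number as a block, 5 without deficient replicate 3, 6 without deficient replicate 1, and 9 without deficient replicate 4. Leaving out agonist replicate 1 or 6 gave 7, and agonist replicate 7 gave 8. Cfb, factor B of the alternative pathway, ranged from 46.4 through 487 to 2771 in agonist libraries, against 74.5, 23.7, 27.6 and 85.4 in deficient libraries, and it differed by 3.12 ± 0.88 (limma adjusted p = 0.0179), or 1.72 relative to the panel (adjusted p = 0.092). C2, which serves the classical pathway in the same way, ranged from 52.3 through 194 to 1137 in agonist tumors, against 48.0, 18.3, 24.5 and 46.4 in deficient tumors, without overlap, and rose by 2.53 ± 0.71 (adjusted p = 0.0174). Of 30 inflammatory cytokine and NF-kB genes 12 rose (median 1.40), beside 50.5% of all probes. Relative to the panel 1 was higher and 5 lower, beside 6.13% and 18.3% of all probes. The 12 became 2 without deficient replicate 2, 6 without deficient replicate 3 or agonist replicate 7, 7 without deficient replicate 4 or agonist replicate 1 or 6, and 19 without agonist replicate 4. The 1 that rose relative to the panel was Il15, a cytokine that sustains NK and memory CD8 T cells, which ranged from 28.1 through 99.5 to 192 in agonist tumors, against 19.7, 11.5, 13.4 and 24.9 in deficient tumors, without overlap. It differed by 2.32 ± 0.54 (adjusted p = 0.00916), or 0.92 relative to the panel (adjusted p = 0.0423). Il18, which activates interferon-gamma production, ranged from 147 through 267 to 648 in agonist tumors, against 87.4, 71.7, 67.1 and 66.3 in deficient tumors, also without overlap, and rose by 1.93 ± 0.43 (adjusted p = 0.00873), and stood at 0.54 relative to the panel (adjusted p = 0.163).

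Endothelial markers rose in 8 of 13 cases as deposited (median 1.47), beside 50.5% of all probes. For 6 of the 13 the groups did not overlap, against 15.6% of the panel, and after centring on the library median for 0, against 2.4%. The 8 became 0 without deficient replicate 2, 4 without deficient replicate 4 and 5 without deficient replicate 3 or agonist replicate 6 or 7. Kdr, a receptor for VEGF, ranged from 32.5 through 89.4 to 345 in agonist libraries, against 25.7, 16.2, 17.4 and 22.4 in deficient libraries, and rose by 2.13 ± 0.56 (limma adjusted p = 0.0143). Vcam1, an adhesion molecule of activated endothelium, ranged from 138 through 210.1 to 288 in agonist tumors, against 132, 58.2, 95.5 and 97.9 in deficient tumors, and rose by 1.13 ± 0.30 (adjusted p = 0.0141). In the frame of the panel these stood at 0.74 and -0.26 (adjusted p = 0.185 and 0.557 for Kdr and Vcam1), and 0 endothelial markers rose or fell. Of 10 fibroblast and pericyte markers 1 rose as deposited (median 0.92), beside 50.5% of all probes. The 1 became 0 without deficient replicate 2 or 4, and 2 to 4 without agonist replicate 2, 4 or 5. Relative to the panel 0 rose and 3, Vim, Fn1 and Tgfb3, fell, beside 6.13% and 18.3% of all probes. Col3a1, a fibrillar collagen, spread from 2389.6 through 26071 to 135990.0 in agonist tumors, against 15619, 6671, 8428 and 17607 in deficient tumors, and differed by 1.12 ± 0.81 (adjusted p = 0.236). Spp1, the secreted phosphoprotein osteopontin, was among the most abundant probes and ranged from 1545 through 15784 to 28005 in agonist tumors, against 16004, 25038, 13429 and 29701 in deficient tumors, a difference of -0.61 ± 0.63 (adjusted p = 0.398). Of 4 epithelial markers on the panel 3 rose as deposited, beside 50.5% of all probes. The 3 became 0 without deficient replicate 1 or 2, and 1 without deficient replicate 3 or 4 or agonist replicate 1, 6 or 7. Muc1 rose by 1.33 ± 0.39 (adjusted p = 0.0196), with -0.07 relative to the panel. None of the genes listed for skeletal muscle or skin keratinocytes was on the panel (0 of 6 each), so tissue around the tumor could not be read from them.

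Of 15 apoptosis and death receptor genes 5 rose as deposited (median 0.65), beside 50.5% of all probes. Relative to the panel 0 rose and 6 fell (median -0.74), beside 6.13% and 18.3% of all probes. The 5 became 1 without deficient replicate 2 or 4 and 3 without deficient replicate 3. Fas, the death receptor for Fasl, ranged from 72.6 through 227 to 410.4 in agonist libraries, against 90.8, 51.4, 73.4 and 78.8 in deficient libraries, and rose by 1.43 ± 0.43 (limma adjusted p = 0.0212), and stood at 0.03 relative to the panel (adjusted p = 0.93). Casp8, the caspase it engages, rose by 1.77 ± 0.54 (adjusted p = 0.0217). Of 6 proliferation genes on the panel 0 rose as deposited (median 0.38), beside 50.5% of all probes. The 0 became 3 without agonist replicate 4 and 2 without agonist replicate 5. Relative to the panel 2, Birc5 and Trp53, fell (median -1.02), beside 18.3% of all probes. Birc5, the mitotic protein survivin, is the 1 probe of the panel whose groups lay apart in the downward direction as deposited. It ranged from 106 through 176 to 209 in agonist libraries, against 215, 242, 212 and 219 in deficient libraries, a difference of -0.40 ± 0.25 (adjusted p = 0.171) as deposited and -1.79 ± 0.43 relative to the panel (adjusted p = 0.0127).

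Of the 137 genes that fell relative to the panel, 45 had a lower mean log2 level in agonist tumors also as deposited, and in 130 the mean of the brighter group was 50 or more. Only 4 of the 137 averaged under 20 in deficient libraries, against 258 of all 750 probes. The ratio of the agonist to the deficient mean was 3.98 for the 10th percentile, 2.83 for the median and 1.85 for the sum of values. The lift was thus smaller for bright probes, and how far the falls follow from probe level was not tested. Clu, the extracellular chaperone clusterin, had the lowest difference: it ranged from 493 through 1609 to 4472 in agonist libraries, against 1486, 3681, 2932 and 4242 in deficient libraries. The difference was -0.97 ± 0.53 (limma adjusted p = 0.122) as deposited and -2.36 ± 0.71 relative to the panel (adjusted p = 0.0267). Sigirr, which restrains interleukin-1 family and Toll-like receptor signaling, ranged from 65.1 through 159.7 to 232 in agonist tumors, against 261, 219, 250.3 and 247 in deficient tumors. Of its 8 agonist values 0 exceeded all deficient values, and the difference was -0.69 ± 0.31 (adjusted p = 0.0748) as deposited and -2.08 ± 0.47 relative to the panel (adjusted p = 0.0112).

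The other low genes named here were taken by their rank relative to the panel. Whether genes of tumor cells or stroma fell more often than other probes was not tested. Vim, the intermediate filament of mesenchymal cells and abundant in cultured tumor cells, ranged from 6867 through 9728 to 15297 in agonist libraries, against 11323, 14970.0, 11922 and 16635 in deficient libraries, and differed by -0.45 ± 0.26 (limma adjusted p = 0.14) as deposited and -1.85 relative to the panel (adjusted p = 0.0158). Dusp6, a phosphatase that damps ERK signaling, ranged from 734 through 2169.9 to 3406 in agonist tumors, against 2859.6, 2716, 2858 and 3856 in deficient tumors. Plau, the urokinase plasminogen activator, ranged from 891 through 1797 to 2309.5 in agonist tumors, against 1586, 1917, 2407 and 3111 in deficient tumors. In each of these the groups overlapped as deposited. Relative to the panel Dusp6 fell by 2.04 and Plau fell by 1.87, while Cd9, a tetraspanin, fell by 2.06, Igf2r, a receptor that clears IGF2, fell by 1.84 and Tnfrsf12a, the receptor of the cytokine TWEAK, fell by 1.80 (adjusted p = 0.0247, 0.0118, 0.0257, 0.0117 and 0.0156). Cx3cl1, a membrane-bound chemokine, fell by 1.78 in that frame (adjusted p = 0.00985). With TMM scaling the differences of the named genes ran from -2.09 for Clu to -1.48 for Cx3cl1, while as deposited none of them was called.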

How the data were processed

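Total RNA of whole tumors had been extracted with TRIzol and read on a NanoString panel of 750 mouse probes, per the labels' protocols and the series description. The authors deposited normalized signal values on a linear scale, in a matrix of 21 libraries and a file per library; which software, control probes and scaling set made them is not given in the sources used here. The matrix was used, and the files per library equalled it within 0.05. Values of 99.6% to 100% of probes per library were whole multiples of a step within 0.1 of a step, which gave the estimated scaling step and the recovered counts. The low-value check of that recovery passed in 6 of the 12 libraries and failed in 6 agonist libraries, so no count test was run. By its rule the check also fails where a library holds few low values. Values under about 20 rest on few counts. No value was 0, and 1 was blank (Hif1a in agonist replicate 6). Libraries of a group differed by more than sampling noise (lowest chi-square per degree of freedom 17.8).

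Differences are on the log2(value + 1) scale, agonist minus STING-deficient, which understates the change of low genes. Limma 3.58.1 (eBayes with trend and robust; R 4.3.3) was fitted to the 12 libraries and all 750 probes, two-sided, with Benjamini-Hochberg adjustment at 0.05; adjusted p-values are from this fit unless a permutation is named. The same fit on values minus each library's median gave changes relative to the panel; the mean library median differed by 1.39. TMM factors came from edgeR 4.0.16 and permutation tests from scipy 1.17.1. The steps through wild-type sham came from a fit to all 21 libraries. Whether libraries are from separate mice is not stated, and p-values then reflect only the spread between samples, which may be technical.

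The comparison, the 29 gene lists and the rules were chosen with earlier results of these data known, and lists overlap. Lists are described by counts and medians with no test. Eligible for naming were Tmem173, the 12 highest and 12 lowest called differences and the 10 highest and 10 lowest relative to the panel with a mean of at least 50 in the higher group, and per list its 4 best genes by adjusted p, or its 2 brightest where fewer than 2 were called. There were 120 such genes; the text names 120, of which 39 were not eligible and were picked after their values were seen. Of 750 accessions 727 matched the RefSeq table of GRCm38.p6, 555 panel genes had a promoter window, and names follow the files (Tmem173 is now Sting1, Ddx58 is Rigi).

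Alternatives were TMM scaling, a filter that left 687 probes, a pseudocount of 10, all 21 libraries, group weights, the replicate number as a block, and leaving out libraries. No deficient library has the number of agonist replicates 5 to 8, so with the block the group difference rests on replicates 1 to 4 of each group. After the data were seen, subtraction of each library's 10th percentile and leaving out agonist replicates 1, 2 and 6 were added.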

Additional observations from a re-analysis of the deposited data

Results flagged for a closer look

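Single libraries stood far from the rest of their group by Dixon's ratio in 17 of 254 groups of values tested, where chance flags about 1 in 20. Agonist replicate 8 was low for Birc5 (6.74 on the log2(value + 1) scale), Sigirr (6.05), Spp1 (10.6) and Tnfrsf12a (7.54), and it had the highest sum of values (888242), the highest recovered count total (763976, an estimate) and the largest share of signal in its 5 brightest probes (34.2%). Agonist replicate 2 was high for Cx3cl1 (6.69), Cxcr2 (9.42) and Itga2 (7.32), agonist replicate 4 was low for Cd14 (2.77), and agonist replicate 1 had the largest estimated scaling step, 1.41 signal per count. Deficient replicate 1 was high for Casp8 (4.69), Oasl1 (4.91) and Xcl1 (6.24), deficient replicate 2 was low for Ifit1 (2.68), and deficient replicate 4 was high for Dusp6 (11.9).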

How the results depend on the processing

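As deposited, the 379 genes called higher became 74 with TMM scaling, 58 with the replicate number as a block, 156 with the 10th percentile subtracted, 34 without agonist replicates 6, 7 and 8, 83 without agonist replicates 1, 2 and 6, and between 90 and 491 when a library was left out in turn. They became 540 with all 21 libraries and 522 with group weights. The 0 called lower became 63 with TMM scaling, 4 with all 21 libraries (Birc5, Igf2r, Sigirr and Vim), 1 with group weights (Sigirr), 1 with the 10th percentile subtracted (A2m) and 0 or 1 when a library was left out. Relative to the panel, the 46 called higher became 74 with TMM scaling, 73 with all 21 libraries, 22 with the block, 16 without agonist replicates 6, 7 and 8, and 15 to 64 when a library was left out, and the 137 called lower became 63 with TMM scaling, 53 with the block, 7 without agonist replicates 6, 7 and 8, 33 without replicates 1, 2 and 6, and 4 to 168 when a library was left out, with 4 without deficient replicate 2. In the same frame the 137 became 202 with all 21 libraries and 177 with group weights, and the 46 became 63 with group weights. The panel median of 1.33 became 0.253 with TMM scaling and stayed between 1.22 and 1.5 when a library was left out. The 117 and 1 probes whose groups did not overlap above and below became 18 and 73 after centring. The causes of these changes were not tested, and fits with libraries left out also hold fewer libraries.

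Of 120 genes named, 11 turned direction with TMM scaling: Tmem173 (-0.16), Irf2 (-0.11), Cma1 (-0.32), Fcer1a (-0.34), Col3a1 (-0.0030), Myd88 (-0.41), Ifnar1 (-0.25), Stat3 (-0.24), Ifitm1 (-0.0021), Ifitm2 (-0.46) and Mx1 (-0.55). Mx1 also turned with the 10th percentile subtracted (-0.33). The same replicate numbers in the titles did not pair the samples: correlations of same-numbered deviations were -0.001, 0.206, -0.078 and 0.102. With the block 24 of the 58 genes called were interferon-stimulated. The planned edgeR test on recovered counts was not run because the low-value check of the recovery failed in 6 agonist libraries. Dim probes rest on a few counts each, which limits the precision of their differences.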

Other observations

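Some of the 26 genes that rose relative to the panel from outside the interferon-stimulated list belong to none of the groups above, and they were picked after their values were seen. Cd69, an early activation marker of lymphocytes that holds them in tissue, ranged from 26.1 through 158 to 301 in agonist libraries, against 29.1, 4.74, 18.9 and 5.81 in deficient libraries, and differed by 1.82 relative to the panel (limma adjusted p = 0.0137). Il7r, the receptor for interleukin 7, and Ccl20, a ligand of Ccr6, differed by 1.5 and 1.80 in that frame (adjusted p = 0.0246 and 0.0375). For Ccl20 the lowest agonist value, 158, lay above the highest deficient value, 123.

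Of 15 angiogenic factors and receptors 6 rose as deposited, beside 50.5% of all probes (median 1.28, beside 1.33 for the panel). The 6 became 1 without deficient replicate 2 and 3 without deficient replicate 3 or 4. Relative to the panel 0 rose and 3 fell, beside 6.13% and 18.3% of all probes, so the 3 are near the share of the panel. They were Vegfc, Angpt2 and Pdgfc, with differences of -1.20, -0.87 and -1.24. Of 2 platelet genes on the panel 1, Ppbp, rose as deposited, beside 50.5% of all probes. It was 0 without any one of the deficient libraries or without agonist replicate 1, 2, 6 or 7.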
